A study of Mus musculus with 32 samples.

Results

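The transforming growth factor beta (TGF-beta) system of mouse brain arteries was described through 10 genes of a read count table of 55357 genes. The 10 genes were taken by symbol: the ligands Tgfb1, Tgfb2 and Tgfb3, the receptors Tgfbr1, Tgfbr2, Acvrl1 and Bmpr2, the co-receptors Tgfbr3 and Eng, and Tgfbi. They were chosen by the read counts of Tgfb3, whose level is lower in control arteries at 12 than at 3 months, so the values of that comparison are given below as a description. Tgfbi is neither a ligand nor a receptor but a secreted matrix protein that TGF-beta induces, and Bmpr2 and Acvrl1 mainly serve the bone morphogenetic protein (BMP) branch of the same superfamily.

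The study asked whether the arterial defects of CADASIL, a small vessel disease of the brain caused by NOTCH3 mutations, go along with a loss or a gain of Notch3 function. Poly(A)-selected RNA of dissected brain arteries was sequenced from 32 mice in 4 groups of 8. Notch3-/- mice, which lack Notch3, were compared with Notch3+/+ mice at 3 months. TgNotch3R169C mice, which carry a rat genomic transgene with the CADASIL mutation R169C on the X chromosome and keep their own murine Notch3, were compared with nontransgenic wild-type mice (WT) at 12 months. All lines had been backcrossed to C57BL/6. The sex of the mice behind each library is not in the labels, and the transgene lies on the X chromosome. The pairs differ in age and in mouse line, so an effect of age cannot be told apart from an effect of line. The arteries were whole dissected vessels, so a lower level of a gene in bulk RNA cannot be told apart from fewer cells that express it.

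TGF-beta ligands are secreted in a latent complex and, once released, bind the type II receptor Tgfbr2. Tgfbr2 recruits and activates the type I receptor Tgfbr1, which phosphorylates Smad2 and Smad3. Endothelial cells also carry Acvrl1, a type I receptor that signals through Smad1 and Smad5 with the help of Eng. The pathway drives the contractile program of smooth muscle and the deposition of vascular matrix, and mutations of ENG, ACVRL1 and BMPR2 cause inherited vascular diseases.

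Libraries held between 20289487 and 54481934 counts. Notch3 was measured at 83.6 ± 12.0 CPM (counts scaled to a common library size; SD, n = 8) in Notch3+/+, 16.2 ± 1.82 CPM in Notch3-/-, 73.2 ± 8.19 CPM in WT and 182 ± 34.5 CPM in TgNotch3R169C. It was lower in all 8 Notch3-/- libraries and higher in all 8 TgNotch3R169C libraries than in any library of their controls. Markers of smooth muscle, endothelium, pericytes and fibroblasts were detected in every library, with none of these markers at 0. Transcripts of the choroid plexus, a tissue next to some arteries, were abundant in 7 libraries (8874 to 25875 CPM summed over 8 markers) and reached at most 570 CPM in the other 25. These 7 libraries were 4 WT, 2 TgNotch3R169C and 1 Notch3-/-, and results below are given without them where they matter.

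All 10 genes were measured in every library, and none was near the detection limit. The lowest count was 448, for Tgfb2 in a WT library. Per kilobase of exon, the co-receptors were the most abundant. Tgfbr3 (betaglycan, which presents ligand to Tgfbr2) stood at 70.7 ± 4.93 CPM per kb in Notch3+/+ and 59.7 ± 5.86 in TgNotch3R169C (SD, n = 8), and Eng at 58.6 ± 4.10 and 63.5 ± 6.86. In both control groups Tgfbr3 lay above Eng by more than their SDs, whereas in both mutant groups the ranges of mean ± SD overlapped.

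Tgfbi, Tgfbr2 and Acvrl1 formed the next tier, at 31.9 to 38.6 CPM per kb as group means, and their ranges of mean ± SD overlapped in every group. Tgfbr1 (20.5 to 24.5 CPM per kb) and Tgfb3 (17.9 to 28.9) followed, and these ranges overlapped in every group too. In Notch3+/+ Tgfb3 ranked above Tgfbr1. Its 28.9 ± 3.26 CPM per kb there overlapped Acvrl1 at 33.3 ± 3.66, so these tiers were not apart in that group. Bmpr2 (14.1 to 15.4), Tgfb1 (10.1 to 11.8) and Tgfb2 (4.15 to 5.81) came last, in that order and apart by more than their SDs in all 4 groups. Tgfb3 was thus the ligand with the highest transcript level per length in these arteries.

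**Figure D1:**
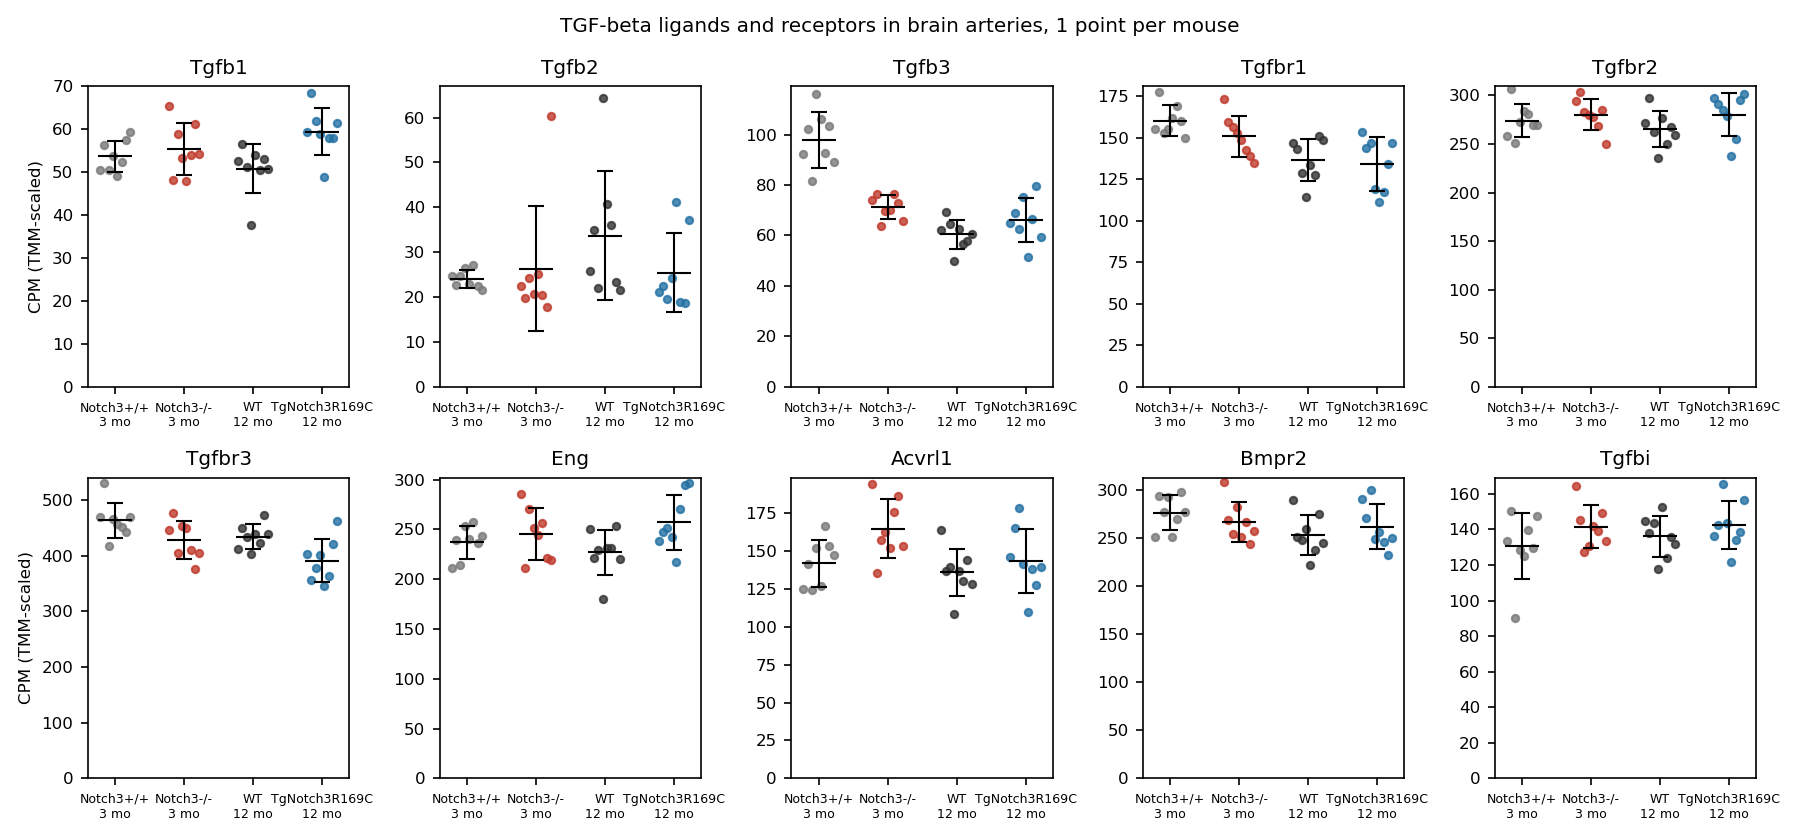
Level of each of the 10 genes in 32 brain artery libraries. The y axis is CPM after TMM scaling, each point is 1 mouse, the long bar is the group mean and the error bar is the SD (n = 8). Tgfb3 is highest in Notch3+/+ at 81.4 to 116 CPM, and single high points of Tgfb2 reach 60.3 CPM in Notch3-/- and 64.4 CPM in WT.

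RefSeq promoter sequences of GRCm38.p6 were matched for 7 of the 10 genes: Tgfb1, Tgfb2, Tgfbr1 (with 2 promoters), Tgfbr2, Eng, Bmpr2 and Tgfbi. The 250 bases before each start were searched on both strands for TGGGAA, a core motif of Rbpj (the DNA-binding partner of Notch), for CAGACA, a Smad-binding motif, and for the CArG box of smooth muscle genes. These motifs do not overlap with each other. TGGGAA was present in 21.6% of all 32851 promoters of this length, CAGACA in 17.1% and the CArG box in 1.47%. Among the 7 genes, Bmpr2 held TGGGAA, Tgfb2 and 1 promoter of Tgfbr1 held CAGACA, and none held a CArG box. Since Notch3 signals through Rbpj, the Bmpr2 sequence is shown (chr1:59764029-59764278, + strand), with the match in capitals from 214 to 209 bases before the start. The Tgfb2 sequence (chr1:186705990-186706239, - strand) is shown because its level varied most between libraries, with CAGACA in capitals from 204 to 199 bases before the start. Both are printed 5′ to 3′ in the direction of the gene, and a match describes letters, not a bound site.
Bmpr2: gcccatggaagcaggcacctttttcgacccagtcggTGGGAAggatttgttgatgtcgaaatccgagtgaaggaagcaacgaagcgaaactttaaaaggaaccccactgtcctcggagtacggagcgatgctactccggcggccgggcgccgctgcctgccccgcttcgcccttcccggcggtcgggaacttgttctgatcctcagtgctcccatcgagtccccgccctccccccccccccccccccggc
Tgfb2: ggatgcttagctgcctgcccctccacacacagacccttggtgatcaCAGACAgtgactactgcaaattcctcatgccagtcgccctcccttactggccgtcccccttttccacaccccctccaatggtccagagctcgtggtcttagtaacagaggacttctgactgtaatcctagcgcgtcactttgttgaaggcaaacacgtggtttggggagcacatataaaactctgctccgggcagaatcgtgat

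Loss of Notch3 went with a lower level of 1 of the 10 genes, the ligand Tgfb3. In Notch3+/+ arteries Tgfb3 ranged from 81.4 to 116 CPM with a median of 97.4 CPM (mean 97.9 ± 11.0, SD, n = 8). In Notch3-/- arteries it ranged from 63.9 to 76.6 CPM with a median of 71.6 CPM (71.2 ± 4.71, n = 8). The groups did not overlap, and all 8 Notch3-/- libraries lay below the Notch3+/+ mean. The log2 fold change was -0.46 ± 0.06 (SE, 95% CI -0.59 to -0.32), a level of 0.729 times that of controls, with an adjusted p of 0.000934 (edgeR quasi-likelihood test, Benjamini-Hochberg over 17714 genes). This comparison called 115 genes, or 0.649% of those tested, and the groups did not overlap for 57 genes, or 0.322%. The Notch3+/+ libraries of this test are those in which Tgfb3 was seen to be high when the genes were chosen, so the test is not independent of that choice.

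Smooth muscle markers were lower in the same libraries. Of 9 markers, 6 were called lower in Notch3-/- and none higher, and their summed level ran from 1673 to 2529 CPM in Notch3-/- against 2429 to 4253 CPM in Notch3+/+. With the mean of these markers as a covariate the Tgfb3 difference was -0.28 on the log2 scale and was not called (adjusted p = 0.495, edgeR quasi-likelihood test). The list itself differs between the groups, so this covariate shares much of the genotype difference. With the neuron, choroid plexus or fibroblast list as a covariate Tgfb3 stayed between -0.45 and -0.43 and was called. Endothelial markers gave 0 calls, and their summed level overlapped (1715 to 2104 CPM in Notch3-/-, 1611 to 2206 CPM in Notch3+/+). The part of smooth muscle content in the Tgfb3 difference was not tested further.

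The other 9 genes passed no threshold in Notch3-/- arteries. Acvrl1 had the largest positive value, with 136 to 194 CPM (median 160) in Notch3-/- and 124 to 167 CPM (median 144) in Notch3+/+. The ranges overlapped, and the log2 fold change of 0.22 had a 95% CI of 0.05 to 0.38 and an adjusted p of 0.414 in edgeR's quasi-likelihood test. Tgfbr3 stood at -0.11 (95% CI -0.22 to -0.0028, adjusted p = 0.632). For Tgfb1 (-0.09 to 0.18), Tgfbr1 (-0.19 to 0.02), Tgfbr2 (-0.06 to 0.12), Eng (-0.08 to 0.18), Bmpr2 (-0.16 to 0.06) and Tgfbi (-0.05 to 0.29) the 95% CI of the log2 fold change included 0. Tgfb2 had the widest interval, -0.30 to 0.56, which is described below. Over the 10 genes the median log2 fold change was 0.04, beside -0.0011 over all genes tested, and 3 genes had an unadjusted p under 0.05, beside 7.69% of all genes.

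**Figure D2:**
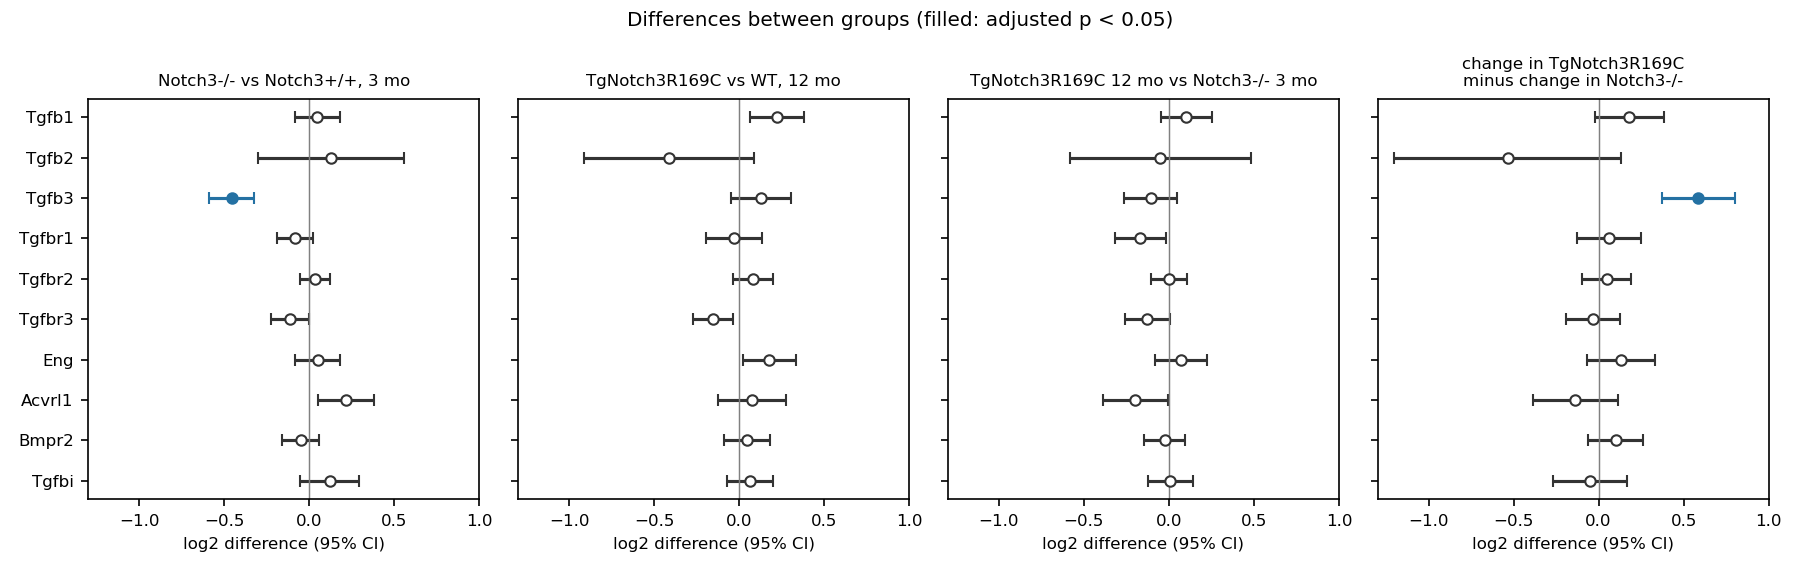
Log2 differences of the 10 genes between groups, as points with 95% confidence intervals from edgeR fits. The x axis is the log2 difference for Notch3-/- against Notch3+/+, TgNotch3R169C against WT, TgNotch3R169C against Notch3-/-, and the difference between the changes in both mutants. Filled points have an adjusted p below 0.05, which holds for Tgfb3 in the first panel (-0.46) and in the last (0.59). Both use the Notch3+/+ libraries in which Tgfb3 was seen to be high when the genes were chosen, so neither is independent of that choice.

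In TgNotch3R169C arteries at 12 months none of the 10 genes was called against WT. The comparison called 20 genes, or 0.113% of 17731 tested, and 25 genes, or 0.141%, did not overlap between groups, none of them among the 10. DESeq2's Wald test also called 0 of the 10, and 3 had an unadjusted p under 0.05 in edgeR, beside 7.27% of all genes. Tgfb3 ranged from 51.6 to 79.5 CPM with a median of 65.6 CPM in TgNotch3R169C (66.0 ± 8.79, SD, n = 8) and from 49.8 to 69.5 CPM with a median of 61.4 CPM in WT (60.4 ± 5.85, n = 8). Its ranges overlapped, and the log2 fold change was 0.13 (95% CI -0.05 to 0.31, adjusted p = 0.749). All 9 smooth muscle markers had negative log2 fold changes (median -0.22) and 0 were called, with a summed level of 1131 to 1729 CPM in TgNotch3R169C and 1354 to 2067 CPM in WT. All 8 neuron markers had positive log2 fold changes (median 0.53) and 0 were called, with a summed level of 409 to 1283 CPM in TgNotch3R169C and 257 to 966 CPM in WT, and their part in the values below was not tested beyond a covariate, which added no call.

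The 3 genes with the smallest p values in TgNotch3R169C were Tgfb1, Tgfbr3 and Eng. Tgfb1, the ligand made by endothelium, platelets and immune cells among others, was at 48.8 to 68.5 CPM (median 59.1) in TgNotch3R169C and 37.8 to 56.5 CPM (median 52.0) in WT, a log2 fold change of 0.22 (95% CI 0.07 to 0.38, adjusted p = 0.58). In TgNotch3R169C, 7 of 8 libraries exceeded the WT mean, but the ranges overlapped. Tgfbr3 was at 346 to 461 CPM (median 389) against 403 to 473 CPM (median 436), a log2 fold change of -0.15 (95% CI -0.27 to -0.03, adjusted p = 0.62). Eng was at 217 to 296 CPM (median 249) against 180 to 254 CPM (median 230), a log2 fold change of 0.18 (95% CI 0.02 to 0.33, adjusted p = 0.665). The lowest WT values of Tgfb1 and Eng came from 1 library, replicate 4, which was also the richest in choroid plexus transcripts. That library was the lowest in WT for Tgfb3, Tgfbr1, Tgfbr2, Tgfbr3, Acvrl1 and Tgfbi as well. In TgNotch3R169C the choroid plexus-rich replicate 5 was the lowest for all of these genes, including Tgfb1 and Eng. The cause was not tested. Tgfbr1 (-0.19 to 0.14), Tgfbr2 (-0.04 to 0.20), Acvrl1 (-0.12 to 0.27), Bmpr2 (-0.09 to 0.18) and Tgfbi (-0.07 to 0.20) had a 95% CI that included 0. The median over the 10 genes was 0.07, beside -0.0074 over all genes.

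The changes in both mutants were compared directly with an interaction term over all 32 libraries. The change in Tgfb3 was higher in TgNotch3R169C than in Notch3-/- by 0.59 ± 0.11 on the log2 scale (SE, 95% CI 0.37 to 0.80, adjusted p = 0.00304, edgeR quasi-likelihood test over 18555 genes). It was the only one of the 10 genes called, where 65 genes, or 0.35% of all tested, were called. The term is the difference between the mutant groups (-0.11 for Tgfb3) minus that between the control groups (-0.70), so for Tgfb3 it is mostly the control difference by which the gene was chosen and is not independent evidence that the mutants differ. It remained called with each of the 4 marker lists as a covariate (0.46 to 0.62). Tgfb2 (-1.20 to 0.13) and Tgfb1 (-0.02 to 0.38) had the next largest differences, with intervals that included 0. For Tgfb2 the difference of -0.54 became -0.0014 without the choroid plexus-rich libraries.

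Neither control group enters the comparison of TgNotch3R169C at 12 months with Notch3-/- at 3 months, in which genotype, line and age differ together. None of the 10 genes was called there by edgeR or by DESeq2, while 682 genes, or 3.82% of 17865 tested, were called and 158, or 0.884%, did not overlap. Unadjusted p values under 0.05 were found for 2 of the 10, beside 19.4% of all genes. Tgfb3 differed by -0.11 (95% CI -0.26 to 0.05, adjusted p = 0.456). Tgfbr1 was at 111 to 153 CPM (median 139) in TgNotch3R169C and 135 to 174 CPM (median 151) in Notch3-/-, a difference of -0.17 (95% CI -0.32 to -0.02, adjusted p = 0.196). Acvrl1 differed by -0.20 (95% CI -0.39 to -0.0068, adjusted p = 0.239), and Tgfbr2 by 0.0011 (95% CI -0.11 to 0.11). Beside these values, all 9 smooth muscle markers had negative differences with 4 called lower (median -0.36, summed level 1131 to 1729 CPM in TgNotch3R169C and 1673 to 2529 CPM in Notch3-/-). Of 8 neuron markers 7 had positive differences and 1 was called higher (median 0.74, 409 to 1283 CPM and 312 to 723 CPM). The median over the 10 genes was -0.04, beside 0.0013 over all genes.

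Between the control groups, whose values led to the choice of these genes, Tgfb3 in WT at 12 months lay below Notch3+/+ at 3 months in every library. The highest WT library was at 69.5 CPM and the lowest Notch3+/+ library at 81.4 CPM, and the log2 difference was -0.70. Tgfbr1 was the most different receptor, at 115 to 151 CPM (median 138) in WT and 150 to 178 CPM (median 158) in Notch3+/+, a log2 difference of -0.23. Tgfb2 differed by 0.48 over all libraries and by -0.05 without the choroid plexus-rich ones, which turned the direction. Bmpr2 was at -0.13, Tgfbr3 at -0.10, and the remaining 5 genes lay between -0.08 and 0.06. The 2 genes past the threshold here, Tgfb3 and Tgfbr1, stand beside 1398 genes, or 7.92% of 17643 tested, and 218 genes, or 1.24%, without overlap. All 9 smooth muscle markers were also lower in WT at 12 months, with a summed level of 1354 to 2067 CPM against 2429 to 4253 CPM. Of 9 fibroblast markers 4 passed the threshold, all lower, and the list summed to 4860 to 5820 CPM in WT and 5468 to 7164 CPM in Notch3+/+. These sums overlapped. The Tgfb3 difference was -0.39 with the smooth muscle list as a covariate and -0.48 with the fibroblast list.

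Tgfb2, the ligand that depends most on Tgfbr3 for binding, went with the choroid plexus content of the libraries. In the 7 libraries rich in choroid plexus transcripts it ranged from 34.8 to 64.4 CPM, and in the other 25 from 17.8 to 27.1 CPM, without overlap. It was the only one of the 10 genes for which these sets of libraries did not overlap. Within Notch3-/- arteries replicate 8 held 60.3 CPM and the other 7 mice 17.8 to 25.1 CPM. In WT arteries replicates 2, 4, 5 and 6 held 34.8, 64.4, 40.7 and 36.2 CPM, and in TgNotch3R169C replicates 5 and 8 held 41.2 and 37.3 CPM. In the 25 other libraries the group means were 24.1 ± 1.98 CPM in Notch3+/+ (SD, n = 8), 21.5 ± 2.55 CPM in Notch3-/- (n = 7), 23.2 ± 1.92 CPM in WT (n = 4) and 20.8 ± 2.22 CPM in TgNotch3R169C (n = 6).

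Tgfb2 was called in no comparison. Its log2 fold change in Notch3-/- arteries was 0.13 (adjusted p = 0.966) over all libraries and -0.16 without the choroid plexus-rich one, which turned the direction. In TgNotch3R169C it was -0.41 (95% CI -0.91 to 0.09, adjusted p = 0.727) over all libraries and -0.16 without the choroid plexus-rich ones, which are 4 of 8 in WT and 2 of 8 in TgNotch3R169C.

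**Figure D3:**
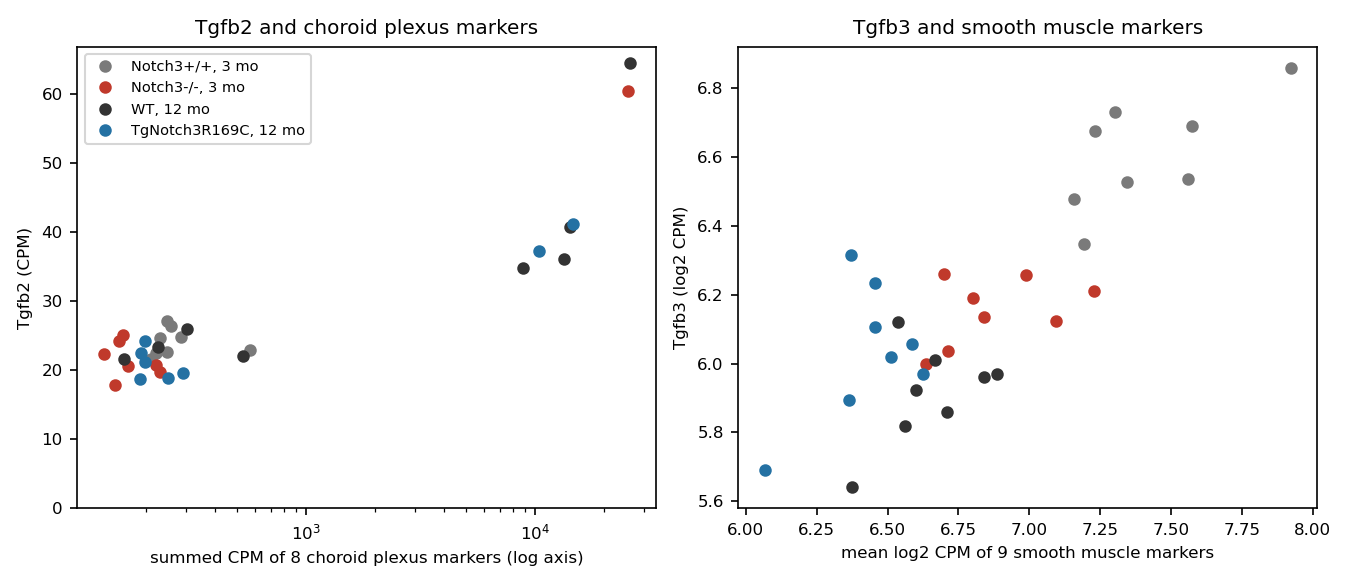
Left, Tgfb2 (y axis, CPM) against the summed CPM of 8 choroid plexus markers (x axis, log scale). Right, Tgfb3 (y axis, log2 CPM) against the mean log2 CPM of 9 smooth muscle markers (x axis), with each point 1 of 32 libraries. On the left 7 libraries stand apart above 8874 CPM of markers with Tgfb2 at 34.8 to 64.4 CPM, and on the right all Notch3+/+ libraries lie above the other groups on the y axis, while Notch3+/+ and Notch3-/- overlap on the x axis.

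Which compartment each gene varied with was described by correlating its log2 CPM with the mean of marker lists after subtracting group means. There were 50 relations, with permutation p values from 100000 shuffles within groups. The smooth muscle, endothelium, pericyte and fibroblast lists used all 32 libraries, and were not correlated without the 7 choroid plexus-rich ones. The choroid plexus list used only the other 25, where Tgfb2 had r = 0.0192 (permutation p = 0.924, adjusted 0.97). Acvrl1, an endothelial receptor, followed the endothelial markers (Pearson's r = 0.859, Spearman's rho = 0.787, 32 libraries, permutation p = 1e-05 for both, the smallest these shuffles can give, adjusted 0.000333 and 0.0005). Without the 2 libraries farthest from the median of the markers r was 0.804. Acvrl1 also varied with smooth muscle markers (r = 0.677, rho = 0.671, permutation p = 0.0001 and 0.00013, adjusted 0.0011 and 0.00325). The same held for pericyte markers (r = 0.578, rho = 0.521, permutation p = 0.00123 and 0.00402, adjusted 0.00559 and 0.0167). Tgfb1 (r = 0.642, rho = 0.558, permutation p = 0.0002 and 0.00145, adjusted 0.00143 and 0.00906) and Eng (r = 0.637, rho = 0.522, permutation p = 0.00027 and 0.00402, adjusted 0.00167 and 0.0167) also varied with endothelium, and r was 0.461 and 0.49 without the 2 farthest libraries. Eng had a higher r with pericyte markers (r = 0.669, rho = 0.614, permutation p = 0.00011 and 0.00035, adjusted 0.0011 and 0.00437), which was 0.61 without the 2 farthest libraries. Eng varied with smooth muscle markers too (r = 0.515, rho = 0.468, permutation p = 0.00257 and 0.00939, adjusted 0.00988 and 0.0361).

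Tgfbr2, Tgfb3 and Tgfbr3 varied most with fibroblast markers. For Tgfbr2 r was 0.715 and rho 0.615 (permutation p = 2e-05 and 0.00032, adjusted 0.000333 and 0.00437), and r was 0.642 without the 2 farthest libraries. For Tgfb3 r was 0.697 and rho 0.572 (permutation p = 2e-05 and 0.00078, adjusted 0.000333 and 0.0065), and r was 0.553 without the 2 farthest libraries. Tgfb3 also varied with smooth muscle markers within groups (r = 0.514, permutation p = 0.00358, adjusted 0.0119), although rho was 0.405 (permutation p = 0.0287, adjusted 0.0736), so that relation held on 1 of the 2 measures. Bmpr2 passed the adjusted threshold with none of the lists. WT replicate 4 and TgNotch3R169C replicate 5, both rich in choroid plexus transcripts, were the lowest of their groups on the smooth muscle, endothelium, pericyte and fibroblast lists. They were also the lowest for Tgfbr2, Tgfb3 and Tgfbr3, and their part in these correlations was not tested separately. Libraries share depth and dissection, and a correlation between libraries does not locate a transcript in a cell type.

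**Figure D4:**
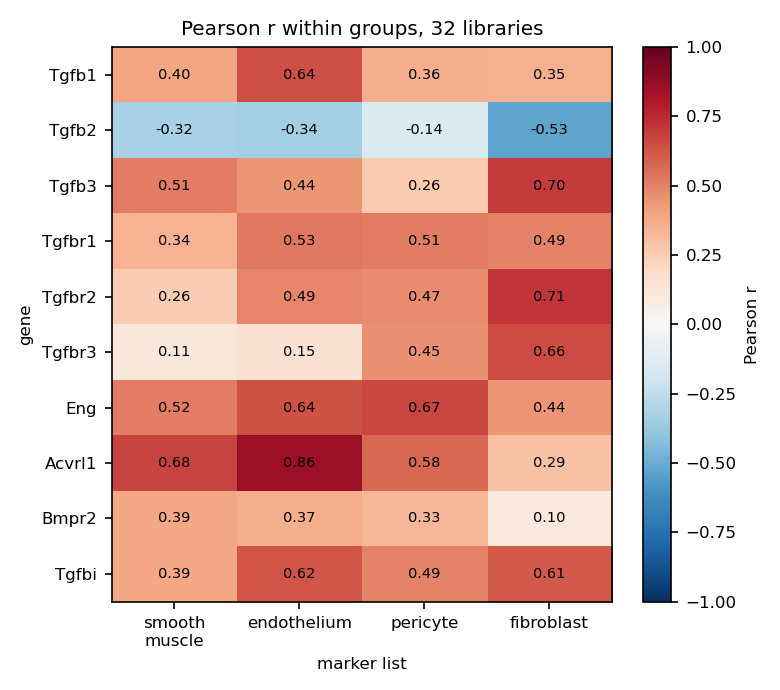
Pearson's r between the log2 CPM of each of the 10 genes (rows) and the mean log2 CPM of 4 marker lists (columns) over 32 libraries, after subtracting group means. The highest value is 0.86 for Acvrl1 with endothelial markers, and Tgfb2 is negative in all 4 columns.

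Among the 10 genes themselves the closest pair within groups was Tgfbr1 and Tgfbr2, the receptors that form 1 signalling complex (r = 0.779 over 32 libraries), followed by Tgfb1 and Acvrl1 (r = 0.761). Over all 32 libraries and 18555 genes, the 5 genes whose log2 CPM was most like that of Tgfb3 were Ppp1r12a (r = 0.883), Mylk (0.865), Tpm1 (0.862), Aoc3 (0.855) and Filip1l (0.852). Mylk encodes the kinase that phosphorylates myosin light chain in smooth muscle, Ppp1r12a the targeting subunit of the myosin phosphatase and Tpm1 a tropomyosin. After subtracting group means r was 0.611 for Ppp1r12a, 0.667 for Mylk, 0.565 for Tpm1, 0.638 for Aoc3 and 0.527 for Filip1l. These are descriptions over libraries that also differ in group, with no test.

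The rest of the pathway was read from 7 lists of 108 genes, of which 101 passed the count filter in each comparison of 2 groups. In Notch3-/- arteries 4 of 101 were called, beside 0.649% of all genes. Acta2 fell from 864 ± 177 to 556 ± 92.2 CPM (SD, n = 8, log2 fold change -0.63, adjusted p = 0.019, edgeR quasi-likelihood test), and Tagln (-0.63, adjusted p = 0.0268) and Cnn1 (-0.79, adjusted p = 0.0208) fell with it. These genes encode contractile proteins of smooth muscle and are also 3 of the 9 smooth muscle markers. Fst, which encodes the activin antagonist follistatin, rose from 1.24 ± 0.353 to 2.27 ± 0.555 CPM (log2 fold change 0.87, adjusted p = 0.0422). This call was kept in 5 of 16 fits without 1 library, with adjusted p from 0.0193 to 0.0968. The calls of Acta2 and Cnn1 were kept in 15 of these fits and that of Tagln in 9. Of the 20 TGF-beta response genes 3 were called lower, and the median of the list was -0.08. The lists of latency genes, other receptors, other ligands, Smads and regulators, and ALK1 and BMP response genes gave 0 calls. Over all 101 genes the median was -0.02 and 17 had an unadjusted p under 0.05, beside 7.69% of all genes.

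In TgNotch3R169C arteries 1 of 101 genes was called, beside 0.113% of all genes. Eln, which encodes elastin, rose from 534 ± 66.2 CPM in WT to 802 ± 111 CPM (SD, n = 8, log2 fold change 0.59, adjusted p = 0.0189, edgeR quasi-likelihood test). Its level was 839 ± 123 CPM in Notch3+/+ and 703 ± 154 CPM in Notch3-/-, so the TgNotch3R169C mean lay close to the younger controls. The interaction term for Eln was 0.84 (95% CI 0.52 to 1.16, adjusted p = 0.00498), the only pathway gene called there. This term is mostly the difference between the control groups (-0.66). Between TgNotch3R169C and Notch3-/- Eln differed by 0.19 and was not called (adjusted p = 0.41, edgeR quasi-likelihood test). Without the choroid plexus-rich libraries the change against WT and the interaction term had nearly the same size but were not called (0.58, adjusted p = 0.221, and 0.83, adjusted p = 0.0926), with fewer libraries in the fit. With the neuron covariate the change in Eln was 0.60 (adjusted p = 0.0554). The crosslinking enzyme Lox stood at 0.39 (adjusted p = 0.148) and the proteoglycan Bgn, which binds TGF-beta, at 0.35 (adjusted p = 0.0645). Itgb5, a subunit of an integrin that activates latent TGF-beta, stood at 0.22 (adjusted p = 0.0971). In the 6 other lists 0 genes were called, and 20 of 101 genes had an unadjusted p under 0.05, beside 7.27% of all genes.

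**Figure D5:**
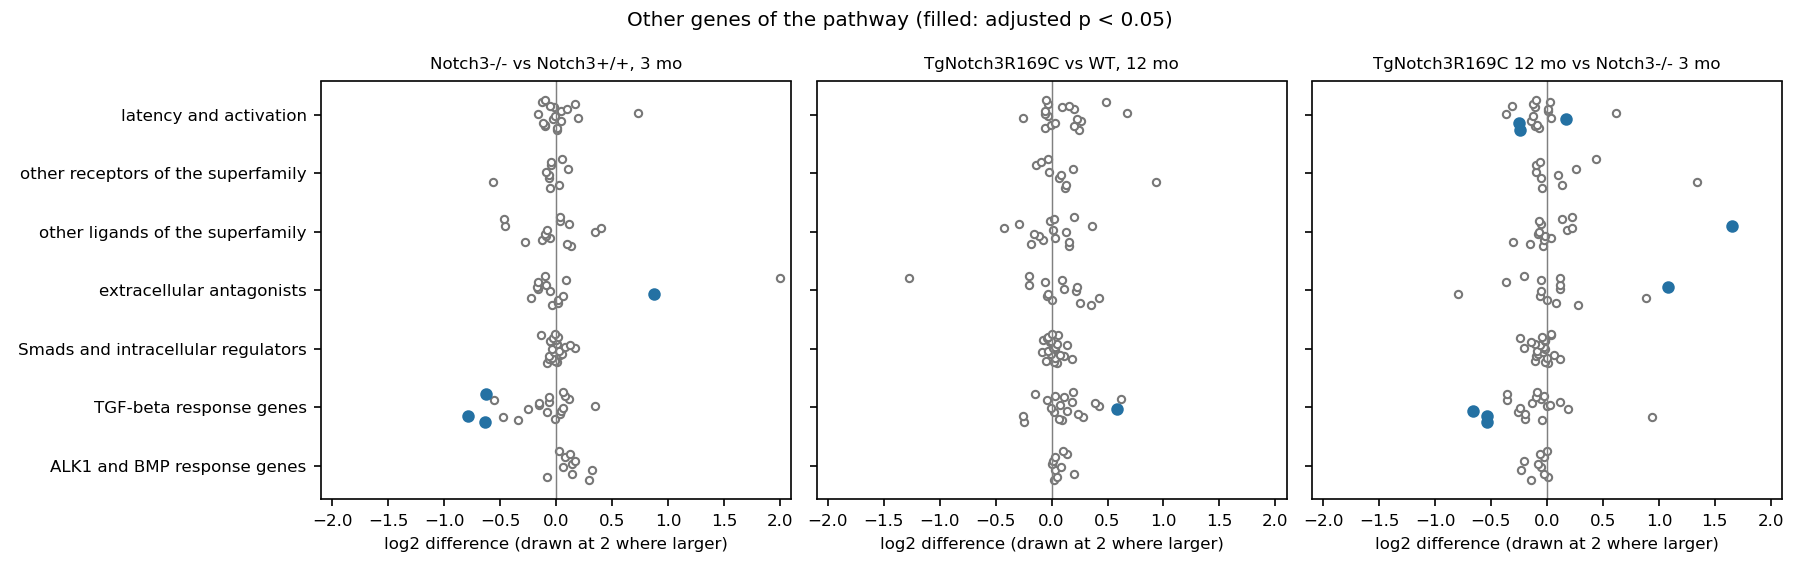
Log2 differences (x axis) of the other pathway genes in 7 lists (y axis) for 3 comparisons, with 1 point per gene and filled points for an adjusted p below 0.05. In Notch3-/- arteries 4 genes are filled, in TgNotch3R169C against WT 1, and in TgNotch3R169C against Notch3-/- 8.

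Between the mutant groups 8 of 101 genes were called, beside 3.82% of all genes. Smooth muscle and neuron markers differed in these libraries as given above. The BMP antagonist Grem1 was higher in TgNotch3R169C at 12 months (21.8 ± 3.99 CPM) than in Notch3-/- at 3 months (10.3 ± 3.27 CPM, SD, n = 8, log2 difference 1.08, adjusted p = 0.00143, edgeR quasi-likelihood test). The ligand Gdf3 (1.65, adjusted p = 0.00556, under 1 CPM in both groups) and Itgb5 (0.17, adjusted p = 0.0386) were also higher. Collagen Col3a1 (-0.66, adjusted p = 0.00481), Acta2 (-0.53, adjusted p = 0.00932), Cnn1 (-0.54, adjusted p = 0.0334), Itgb1 (-0.25, adjusted p = 0.0468) and fibrillin Fbn1 (-0.24, adjusted p = 0.0469) were lower. Leaving out single libraries kept the calls of Grem1, Gdf3, Col3a1 and Acta2 in all 16 fits, but those of Cnn1 in 8, Fbn1 in 6, Itgb1 in 4 and Itgb5 in 3. Between the control groups 31 of 101 passed the same threshold, 28 lower and 3 higher in WT at 12 months, beside 7.92% of all genes. Among them were 12 of the 20 TGF-beta response genes, all lower, with Col3a1 at -0.76, Acta2 at -0.93 and Eln at -0.66 as log2 differences. Htra1, which encodes a protease that is mutated in a recessive small vessel disease, was at -0.42. Of the other genes called between the mutants, Grem1 (0.67), Gdf3 (0.82), Cnn1 (-1.08), Itgb1 (-0.41) and Fbn1 (-0.49) had the same direction between the controls. Itgb5 (-0.09) had the opposite one. In the same libraries 9 of 9 smooth muscle and 4 of 9 fibroblast markers passed as lower, and Acta2, Tagln, Cnn1 and the collagens are themselves on those marker lists.

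Exons of some genes overlap other annotated genes, and the strand setting of the counting is not given in the sources used here. Of the exon length of Tgfb3, 7.6% overlaps Gm48008 and 4.82% overlaps Gm37804, both on the opposite strand. For the 9 other genes such overlaps came to at most 4.54% (Tgfbr3 with Gm43422, same strand). Labels name each library as a separate sample of its group, and no library pair within a group was near identical.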

How the data were processed

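Total RNA of dissected brain arteries of 32 mice was sequenced from stranded poly(A)-selected libraries. The deposited table holds raw read counts per gene, which the authors made from reads aligned to mouse build mm39. The submitters' processing notes name bcl2fastq 2.20.0.422, cutadapt 1.10, Bowtie2 2.2.8, STAR 2.5.3a and HTSeq 0.6.1p1, with no role given for each. The annotation release is not given in the sources used here.

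Counts of each pair of groups were filtered by filterByExpr, scaled by TMM and tested with edgeR 4.0.16 (glmQLFit and glmQLFTest, R 4.3.3), with Benjamini-Hochberg adjustment over all genes tested and a threshold of 0.05. The interaction was fitted over all 4 groups. CPM values use TMM scaling over 32 libraries, and log2 CPM a prior count of 2. Exon lengths are exon unions of the GENCODE vM21 annotation, of another build than the counts. The rows had 52081 symbols for 55357 genes, and 16744 rows held no counts. Totals per library, from 20289487 to 54481934, set the counting precision. Groups follow the labels, with 1 mouse per library.

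The 10 genes, the pathway lists and the marker lists were chosen with earlier results of these data known. The text names the 10 genes, Notch3, pathway genes called in any tested comparison, for each list and comparison the genes of smallest p from which examples were drawn, and the 5 genes most like Tgfb3. Acta2, Col3a1, Eln and Htra1 in the control groups are examples of that description. Alternatives were DESeq2 1.42.0, limma 3.58.1 (voom), other scalings and filters, a fit over 4 groups, marker lists as covariates, a replicate block and leaving out each library. Leaving out libraries rich in choroid plexus transcripts was added after seeing the data. The scripts were tested on simulated data.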

Additional observations from a re-analysis of the deposited data

Results flagged for a closer look

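In 6 of 40 combinations of gene and group 1 library lay farther from the others than Dixon's 95% limit for 8 samples, where chance flags about 1 in 20, or 2 of 40. For Tgfb1 this was WT replicate 4, whose gap was 0.677 of the group's range. For Tgfb2 these were Notch3-/- replicate 8 (0.83) and WT replicate 4 (0.555), both among the 7 libraries rich in choroid plexus transcripts. For Tgfbr3 it was Notch3+/+ replicate 2 (0.546), for Eng WT replicate 4 (0.542) and for Tgfbi Notch3+/+ replicate 3 (0.578).

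The changes in both mutants differed, by the interaction term, for Tgfb3 (0.587 on the log2 scale) and for Eln (0.842). For Tgfb3 this term is mostly the control difference by which the gene was chosen, and TgNotch3R169C differed from Notch3-/- by -0.11 (adjusted p = 0.456, edgeR quasi-likelihood test). The Eln term is also mostly a control difference (-0.66), and TgNotch3R169C differed from Notch3-/- by 0.19 in Eln (adjusted p = 0.41, same test). It was not called without the choroid plexus-rich libraries (interaction term 0.83, adjusted p = 0.0926).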

How the results depend on the processing

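Tgfb3 was lower in Notch3-/- in each of 12 alternatives (-0.46 to -0.28) and called in 11, with adjusted p from 0.000505 to 0.00408 when single libraries were left out (16 fits, -0.49 to -0.41). With smooth muscle markers as a covariate 0 of the 10 genes and 1 pathway gene were called in Notch3-/-. The interaction term of Tgfb3 was called in all 11 alternatives and in all 32 fits without 1 library. Both Tgfb3 results use the Notch3+/+ libraries in which the gene was seen to be high when it was chosen. These repeated calls are therefore not independent of that choice. In TgNotch3R169C against WT and against Notch3-/-, 0 of the 10 genes were called in every alternative. In the control comparison, where no test of the 10 genes is reported, 16 pathway genes passed with the choroid plexus covariate and 16 without choroid plexus-rich libraries. With the smooth muscle or the fibroblast covariate 0 passed.

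Directions turned only in values that were not called in the main analysis, except Cnn1 between the mutants (0.0199 with the smooth muscle covariate). Tgfb2 in Notch3-/- turned to -0.015 with limma voom, -0.0044, -0.034 and -0.021 with the choroid plexus, smooth muscle and fibroblast covariates, and -0.16 without the choroid plexus-rich library, Notch3-/- replicate 8. Bmpr2 in Notch3-/- was 0.077 with the smooth muscle covariate. Tgfbr1 in TgNotch3R169C was 0.019 with the neuron and 0.082 with the smooth muscle covariate. Between the mutants Tgfbr2 was -0.0054 with RLE scaling, -0.011 with no filter, -0.0039 with at least 10 counts, -0.0054 with DESeq2, -0.0012 with voom, -9.86e-05 with 4 groups in 1 fit and -0.0051 without choroid plexus-rich libraries. Tgfbi was -0.0026 there with no filter and Tgfb2 0.0015 with voom. Bmpr2 was 0.0604, 0.14 and 0.0041 with the neuron, smooth muscle and fibroblast covariates, Tgfb3 0.031 and 0.0062 with the smooth muscle and fibroblast ones, and Acvrl1 0.12 with smooth muscle. The interaction of Tgfbi was 0.0091 with the neuron covariate, and that of Tgfbr1 -0.0096 with smooth muscle and -0.022 without choroid plexus-rich libraries. In the control comparison Tgfb1, Tgfbr2, Tgfbr3, Eng and Acvrl1 also turned positive under some marker covariates, up to 0.12, 0.12, 0.059, 0.19 and 0.29, and Tgfb2 turned to -0.087 with the choroid plexus covariate. The cause was not tested.

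The number of pathway genes called in TgNotch3R169C (1) was 2 with RLE scaling, 2 with at least 10 counts, 5 with DESeq2, 3 with 4 groups in 1 fit, 2 and 3 with the smooth muscle and fibroblast covariates and 0 without choroid plexus-rich libraries. Between the mutants (8) it was 5 with no filter, 19 with DESeq2, and 4, 1 and 5 with the neuron, smooth muscle and fibroblast covariates. Over all genes DESeq2 called 278 in Notch3-/-, 80 in TgNotch3R169C, 1619 between the mutants, 2262 between the controls and 155 in the interaction. The main counts were 115, 20, 682, 1398 and 65. Calls in Notch3-/- were 174 with 4 groups in 1 fit and 22 with the smooth muscle covariate, in TgNotch3R169C 8 with the neuron covariate and 2 without choroid plexus-rich libraries, and in the interaction 39 without them. Between the mutants the neuron, smooth muscle and fibroblast covariates left 221, 56 and 256 calls. Between the controls the choroid plexus, smooth muscle and fibroblast covariates left 304, 0 and 10, and 402 remained without choroid plexus-rich libraries.

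Without single libraries, pathway calls in Notch3-/- ran from 0 (without Notch3-/- replicate 7) to 4, with 2 without Notch3+/+ replicates 1, 4 or 6 or Notch3-/- replicate 3. In TgNotch3R169C they ran from 1 to 3, with 3 without TgNotch3R169C replicate 5 and 2 without its replicate 6 or WT replicate 5. Between the mutants they ran from 4 to 13, with 13 without Notch3-/- replicate 8, 5 without its replicate 5 and 4 without its replicates 4 or 6 or TgNotch3R169C replicates 2 or 4. Over all genes, calls in TgNotch3R169C ran from 11 (without WT replicates 3 or 4) to 26, between the mutants from 409 (without Notch3-/- replicate 4) to 1169 (without its replicate 8), and between the controls from 895 (without Notch3+/+ replicate 7) to 1621. Tgfb2 ran from -0.16 to 0.2002 in Notch3-/- and from -0.18 to 0.23 between the mutants, Tgfbr1 in TgNotch3R169C from -0.0595 to 0.014, Tgfbr2 and Tgfbi between the mutants from -0.029 to 0.032 and from -0.035 to 0.039, and Tgfbi in the interaction from -0.092 to 0.011.

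Replicate numbers were not taken to pair the mice, since no comparison had every same-numbered pair above a correlation of 0.1. Deviations of same-numbered libraries correlated from -0.14 to 0.34 in Notch3-/- against Notch3+/+, from -0.25 to 0.42 in TgNotch3R169C against WT and from -0.19 to 0.24 between the controls. Between the mutants all 8 were positive (0.05 to 0.49) and 6 exceeded 0.1. With a replicate block Tgfb3 was -0.45 in Notch3-/-, and 5 rather than 8 pathway genes were called between the mutants, where Tgfbr2 was -0.0011. Over all genes the block gave 6 calls in TgNotch3R169C, 97 in Notch3-/-, 598 between the mutants and 715 between the controls.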
